A study of Mus musculus with 6 samples.

Results

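Molecular chaperones bind proteins that are not yet folded, or that have lost their fold, and keep them from aggregating. The 10 heat shock and chaperone genes described here were chosen by name: Hspa1a, Hspa1b, Hspa8, Hspa5, Hsp90aa1, Hsp90ab1, Hspb1, Hsph1, Dnajb1 and Hsf1. All 10 were among the 55487 genes listed for vascular endothelial cells (VECs) sorted from the mouse retina. The comparison was between 3 control libraries and 3 Bmal1;CKO libraries, all from pups on a C57BL/6J background sampled at P7.5 around noon. Both groups carried tdTomato FL/+ together with Pdgf-icreER, and the mutants were in addition Bmal1 FL/FL. Controls and mutants alike received tamoxifen after birth and had the inducible Cre and the reporter, so the loss of Bmal1, a core transcription factor of the circadian clock, was the labelled difference. Cre came from a Pdgf transgene, and cells were kept when they showed both its GFP and the tdTomato that recombination switches on.

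In the heat shock system, HSP70 proteins take up exposed stretches of a client protein in a cycle driven by ATP. J-domain partners such as Dnajb1 deliver clients, and Hsph1 resets the cycle by exchanging the nucleotide. HSP90 proteins act on clients that are nearly folded, including kinases and steroid receptors, and small heat shock proteins such as Hspb1 hold unfolded proteins without using ATP. Hsf1 is the transcription factor that switches on the inducible members, above all Hspa1a and Hspa1b, when unfolded protein builds up. Enzymatic dissociation and cell sorting are known to induce the same genes.

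Reads assigned to genes numbered 71145068 to 104017800 per library, with 21598 to 27904 genes having a read. The targeted gene, Arntl (Bmal1), had a normalized count of 2706 ± 915 in control and 2314 ± 492 in Bmal1;CKO cells (SD, n = 3 each), and the libraries of the groups overlapped. Its log2 fold change was -0.19 (limma-trend adjusted p = 0.924), so the transcript total did not separate the labels. The floxed exon alone was not analysed here. By droplet digital PCR on sorted endothelial cells, the study reported significantly less Bmal1 transcript in mutants than in controls. The 12 endothelial markers summed to between 111306 and 357380 normalized counts and none was at 0 in any library, but markers of other retinal cells were also present. The 9 microglial markers summed to 1386183 to 4103347, the 10 rod markers to 558949 to 923816, the 7 Muller glia markers to 4032847 to 16662713 and the 6 pericyte markers to 2626 to 42930. The Muller glia list was Rlbp1, Glul, Slc1a3, Aqp4, Sox9, Vim and Apoe. Whether each marker is confined to its named cells was not tested. Such sums depend on the genes listed and do not rank the cell types of these lists. The summed level of each of these lists overlapped between the groups, but their genes leaned to one side. All 12 endothelial markers had a negative log2 fold change (median -0.54, none under an unadjusted limma-trend p of 0.05), as had 9 of 10 rod markers (median -0.26, 2 under it). Of the microglial markers 8 of 9 had a positive one (median 0.40, none under it), as had 5 of the 6 Muller glia markers tested (median 0.32, 1 under it). Of the 20459 genes tested, 4.92% were under it, 11570 had a positive log2 fold change and 8889 a negative one. The part of these cell types in the chaperone values was not tested. In such bulk samples, fewer cells of a type and less RNA per cell cannot be told apart.

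No chaperone gene of the 10 passed a false discovery rate of 0.05 by limma-trend, and 0% of the 20459 genes tested did. The quasi-likelihood test of edgeR called 0 and DESeq2 called 67 of these genes at that rate, none of the 10 among them. At an unadjusted limma-trend p under 0.05, 2 of the 10 were called where 4.92% of all genes tested were called. Hsf1 was the one that was higher in Bmal1;CKO (3.17% of all genes) and Hspa8 the one that was lower (1.75% of all genes). The same 2 genes were those whose 3 mutant libraries lay wholly above (6.62% of all genes) or wholly below (4.54% of all genes) the 3 control libraries. For the other 8 the groups overlapped. The median log2 fold change of the 10 was 0.06, against 0.11 for all genes tested, and 6 were higher and 4 lower. All 10 passed the filter on low counts.

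**Figure D1:**
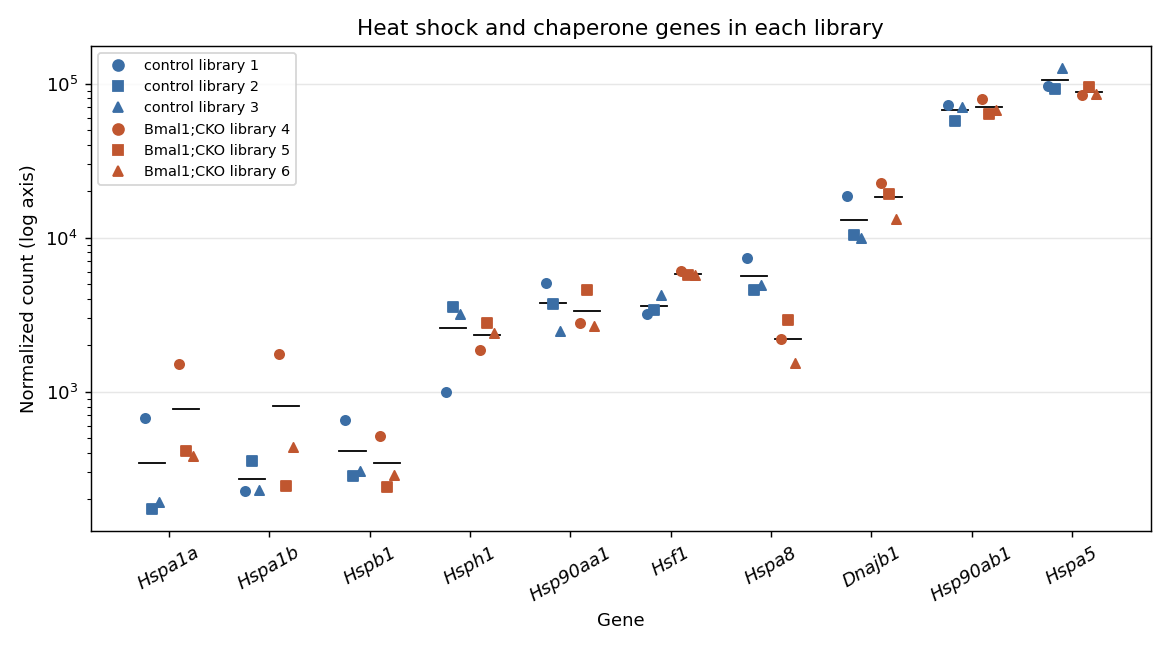
Normalized count (log axis) of the 10 heat shock and chaperone genes in each library, with circles, squares and triangles for the 3 libraries of a group and a line at each group's mean. The groups separate for Hsf1, where every Bmal1;CKO library is at or above 5680 and every control at or below 4263, and for Hspa8, where the order is opposite.

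Hspa8 encodes HSC70, the HSP70 that cells make at all times and that also strips clathrin from vesicles. Its row held 7352, 4554 and 4945 normalized counts in the control libraries and 2190, 2902 and 1531 in the Bmal1;CKO libraries. Every mutant library was below every control. The log2 fold change was -1.36 (SE 0.33, 95% interval -2.14 to -0.59, n = 3 against 3), with a limma-trend adjusted p of 0.856. The exact two-sided permutation test gave p = 0.1, the smallest that 3 against 3 libraries allow. With any 1 library left out the log2 fold change stayed between -1.58 and -1.12, under the unadjusted threshold in each case.

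Most of the reads assigned to Hspa8 and its near copies were not on the row of Hspa8. Processed pseudogenes are copies of a spliced messenger RNA that were written back into the genome, and they therefore lack the introns of the parent gene. Hspa8 (chr9:40800984-40810087, plus strand, GRCm38) had 5 annotated copies with at least 95% identity. The closest was Gm15459 (chr5:5781615-5783555, minus strand), a processed pseudogene of a single exon whose 1941 aligned bases differed from the Hspa8 coding sequence at 5 positions. Counted from 1 at the first coding base, these were G114A, C414T, C549T, G1222A and C1440T, with the base of Hspa8 first. The stretch below covers coding bases 332 to 431 of Hspa8, chr9:40802544-40802758 after splicing, and its match at chr5:5783125-5783224. It is shown because the sequences differ there at only 1 base, in capitals, and because in Hspa8 it crosses an exon junction after 80 bases that the copy lacks.

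Hspa8: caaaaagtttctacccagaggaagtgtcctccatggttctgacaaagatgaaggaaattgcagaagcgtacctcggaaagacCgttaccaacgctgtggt
Gm15459: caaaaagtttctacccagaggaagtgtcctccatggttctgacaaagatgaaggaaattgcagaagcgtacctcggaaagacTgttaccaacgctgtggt

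Of all 1792 windows of 150 bases (the read length) in the Hspa8 coding sequence, 69.4% occurred without a difference in at least 1 copy and 58.2% crossed an exon junction. Gm15459 held 78521, 89010 and 83258 normalized counts in control and 101463, 90423 and 80337 in Bmal1;CKO libraries. These counts exceeded those of the Hspa8 row in every library, and the groups overlapped. The log2 fold change of Gm15459 was 0.11 (SE 0.27, limma-trend adjusted p = 0.938, exact permutation p = 0.4).

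Hspa8 and its 5 copies together held 87454, 94955 and 90019 normalized counts in the control libraries and 105782, 95475 and 83700 in the Bmal1;CKO libraries. The groups overlapped, and the lowest and the highest library of all 6 were both mutants. Summed in this way, a choice made after seeing the data, the log2 fold change was 0.06 (SE 0.27, 95% interval -0.58 to 0.70, limma-trend adjusted p = 0.972, exact permutation p = 0.6). Of 20434 genes tested with near copies summed, 4.92% were under the unadjusted threshold of 0.05, and of the 10 chaperone genes only Hsf1 was.

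The groups also differed in the share of the family's reads that was assigned to the Hspa8 row. The gene's own row took 8.41%, 4.80% and 5.49% of the reads of the gene and its copies in control libraries, and 2.07%, 3.04% and 1.83% in Bmal1;CKO libraries. These shares did not overlap (exact permutation p = 0.1). Among the smaller copies, Gm7232, Gm6210 and Gm8337 were higher in every mutant library than in any control, with log2 fold changes of 0.84, 1.46 and 0.59, none of them under the unadjusted threshold. Gm8355 overlapped between the groups (log2 fold change -0.02). The authors aligned with Bowtie, a name under which the original program and its successor are both known, and neither splits a read across an intron. The part of the aligner in these shares was not tested.

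**Figure D2:**
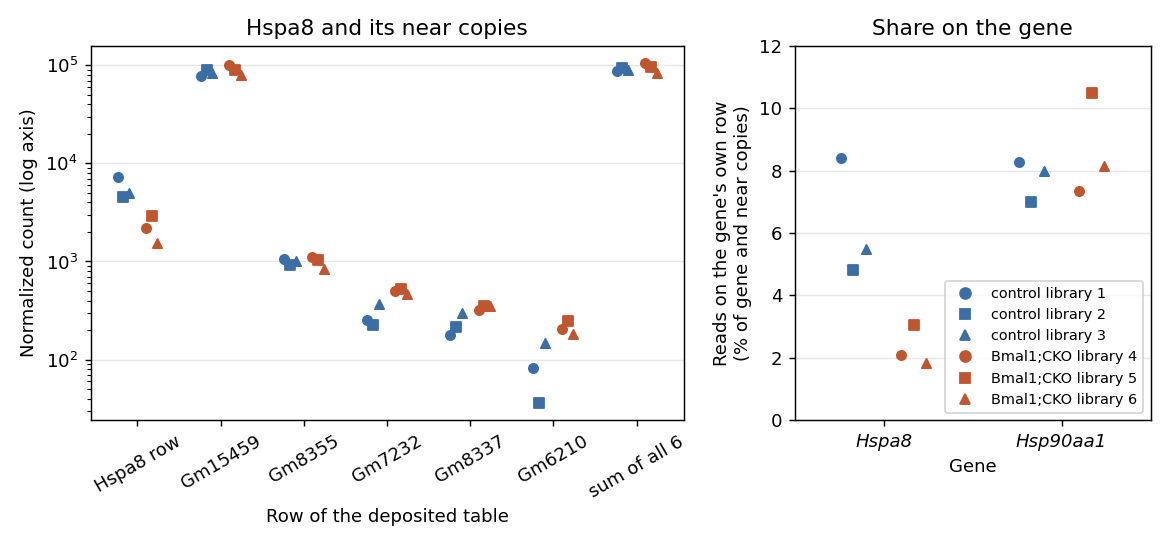
Left, normalized count (log axis) of the Hspa8 row, its 5 near copies and their sum in each library. Right, the percentage of reads on the gene's own row among the gene and its near copies, for Hspa8 and for Hsp90aa1. The Hspa8 row is lower in all 3 Bmal1;CKO libraries (1.83% to 3.04%, against 4.80% to 8.41% in control), while Gm15459 and the sum overlap between the groups.

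Hsf1 was the other member whose groups did not overlap. Its normalized counts were 3172, 3394 and 4263 in control and 6097, 5680 and 5696 in Bmal1;CKO libraries. All mutant libraries were above all controls, and the coefficient of variation was 16.0% in control and 4.06% in Bmal1;CKO cells. The log2 fold change was 0.70 (SE 0.24, 95% interval 0.15 to 1.25), with a limma-trend adjusted p of 0.883. The exact permutation p was 0.1. Without any 1 of the libraries the log2 fold change was 0.61 to 0.83, but it no longer passed the unadjusted threshold when Bmal1;CKO library 4, 5 or 6 was left out. Hsf1 (chr15:76477422-76501913, plus strand) had no copy with at least 95% identity.

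The inducible HSP70 genes Hspa1a and Hspa1b were high in 1 mutant library. Hspa1a had normalized counts of 671, 174 and 191 in control and 1513, 414 and 381 in Bmal1;CKO libraries. Hspa1b had 225, 354 and 229 in control and 1748, 244 and 437 in Bmal1;CKO libraries. In both genes Bmal1;CKO library 4 stood above every other library, and the groups overlapped. The log2 fold changes were 1.14 (SE 0.78, exact permutation p = 0.5) and 1.12 (SE 0.77, exact permutation p = 0.2), each with a limma-trend adjusted p of 0.883. Without library 4 they were 0.50 and 0.31. Control library 1 had the highest Hspa1a of the controls, and without it the log2 fold change of Hspa1a was 1.76 and under the unadjusted threshold.

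Hspa1a and Hspa1b lie next to each other on chromosome 17, each as a single exon on the minus strand (chr17:34969190-34972156 and chr17:34956436-34959238). Their coding sequences differed at 8 positions over 1926 aligned bases, and 54.5% of the 150-base windows of Hspa1a were found without a difference in Hspa1b. The split of reads between them is therefore uncertain. Coding bases 1317 to 1416, at chr17:34970510-34970609 and chr17:34957592-34957691, show 2 of these differences in capitals.

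Hspa1a: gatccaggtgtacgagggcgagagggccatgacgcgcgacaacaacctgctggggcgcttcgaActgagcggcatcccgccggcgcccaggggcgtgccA
Hspa1b: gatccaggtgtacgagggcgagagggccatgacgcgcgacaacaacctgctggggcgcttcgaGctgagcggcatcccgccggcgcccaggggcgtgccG

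Hspa1a took 74.9%, 32.9% and 45.6% of the reads of the pair in control and 46.4%, 62.9% and 46.6% in Bmal1;CKO libraries. Summed, the pair held 896, 528 and 420 normalized counts in control and 3262, 658 and 818 in Bmal1;CKO libraries. The groups still overlapped, since Bmal1;CKO libraries 5 and 6 lay below control library 1. The log2 fold change of the sum was 1.05 (SE 0.66, 95% interval -0.49 to 2.59, limma-trend adjusted p = 0.883, exact permutation p = 0.3). Gm20481, annotated on the opposite strand over 564 exon bases of Hspa1a, was listed at 0 in every library, and whether the counting used strand is not given in the sources used here.

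Genes known to respond within minutes to tissue handling were high in some of the same libraries. The 14 immediate early genes, among them Fos, Jun, Atf3 and Egr1, summed to 1193491, 467229 and 412651 normalized counts in control libraries and to 1335291, 1440907 and 955690 in Bmal1;CKO libraries. Control library 1 was the control with the highest sum. It was also the control with the most reads on Hspa1a and Hspa1b together (896 normalized counts) and on Dnajb1 (18627). Its Hsf1 (3172) was the lowest of all 6 libraries. Bmal1;CKO library 5, with the highest sum of the immediate early genes, had the lowest Hspa1a and Hspa1b together of the mutants (658). All 14 had a positive log2 fold change (median 1.05), as had 11570 of the 20459 genes tested. Under the unadjusted threshold were 6 of the 14, where 3.17% of all genes tested were higher and under it. The part of the immediate early genes in the values of Hspa1a, Hspa1b, Dnajb1 and Hsf1 was not tested.

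Dnajb1, the J-domain partner that delivers clients to HSP70 and is itself induced by heat, had 18627, 10435 and 9987 normalized counts in control and 22481, 19046 and 13129 in Bmal1;CKO libraries. Control library 1 lay among the mutant values and the other two controls below all of them. The log2 fold change was 0.51 (SE 0.34, 95% interval -0.27 to 1.29, limma-trend adjusted p = 0.883, exact permutation p = 0.2). Without control library 1 it was 0.80 and under the unadjusted threshold. Hsph1, the HSP110 that exchanges nucleotide on HSP70, had 994, 3556 and 3200 in control and 1858, 2785 and 2393 in Bmal1;CKO libraries. Here control library 1 was the lowest of all, and the sign of the log2 fold change (0.04, SE 0.51) turned to -0.54 without it. It was also negative by edgeR and DESeq2 (-0.14 by each).

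The HSP90 pair gave no separation of the groups. Hsp90ab1, the form made at all times, had 72839, 57116 and 70797 normalized counts in control and 78966, 63483 and 67812 in Bmal1;CKO libraries. Its log2 fold change was 0.07 (SE 0.27, 95% interval -0.55 to 0.69, limma-trend adjusted p = 0.965, exact permutation p = 0.7). Hsp90aa1, the more inducible form, had 5105, 3717 and 2481 in control and 2795, 4578 and 2676 in Bmal1;CKO libraries. The groups overlapped throughout, with a log2 fold change of -0.15 (SE 0.36, limma-trend adjusted p = 0.936).

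As with Hspa8, a pseudogene held more reads than Hsp90aa1 itself. Gm12346 (chr11:77293444-77295898, plus strand), annotated as a transcribed processed pseudogene, had 54036, 47115 and 26837 normalized counts in control and 33419, 36832 and 28556 in Bmal1;CKO libraries. The gene's own row took 7.76% ± 0.68 of the reads of gene and copies in control and 8.66% ± 1.64 in Bmal1;CKO libraries (SD, n = 3 each). Unlike those of Hspa8, these shares overlapped (exact permutation p = 0.5). Summed, the log2 fold change was -0.30 (SE 0.33, 95% interval -1.05 to 0.46, limma-trend adjusted p = 0.886). Coding bases 83 to 182 of Hsp90aa1 (chr12:110695399-110695598 after splicing, minus strand) and their match at chr11:77293578-77293677 are shown because they again cross a junction after 80 bases and differ only at the 2 capitals, G96A and G179C.

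Hsp90aa1: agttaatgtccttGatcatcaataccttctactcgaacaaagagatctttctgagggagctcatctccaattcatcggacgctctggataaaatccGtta
Gm12346: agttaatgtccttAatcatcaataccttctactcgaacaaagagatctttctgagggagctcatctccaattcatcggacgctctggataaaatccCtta

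Hspa5 encodes BiP, the HSP70 of the endoplasmic reticulum. It had 96597, 92157 and 126171 normalized counts in control and 84116, 95643 and 86031 in Bmal1;CKO libraries. Control library 3 was the highest, and the groups overlapped at Bmal1;CKO library 5. The log2 fold change was -0.23 (SE 0.29, 95% interval -0.90 to 0.44, limma-trend adjusted p = 0.895, exact permutation p = 0.2). Hspb1, a small heat shock protein also known to bind actin, had 656, 281 and 304 in control and 512, 239 and 287 in Bmal1;CKO libraries. Its log2 fold change was -0.22 (SE 0.59, limma-trend adjusted p = 0.943), and 0.16 without control library 1. Of its 150-base coding windows 83.8% occurred without a difference in a copy, mainly Hsp25-ps1, and summed with its copies it gave -0.27 (limma-trend adjusted p = 0.917).

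**Figure D3:**
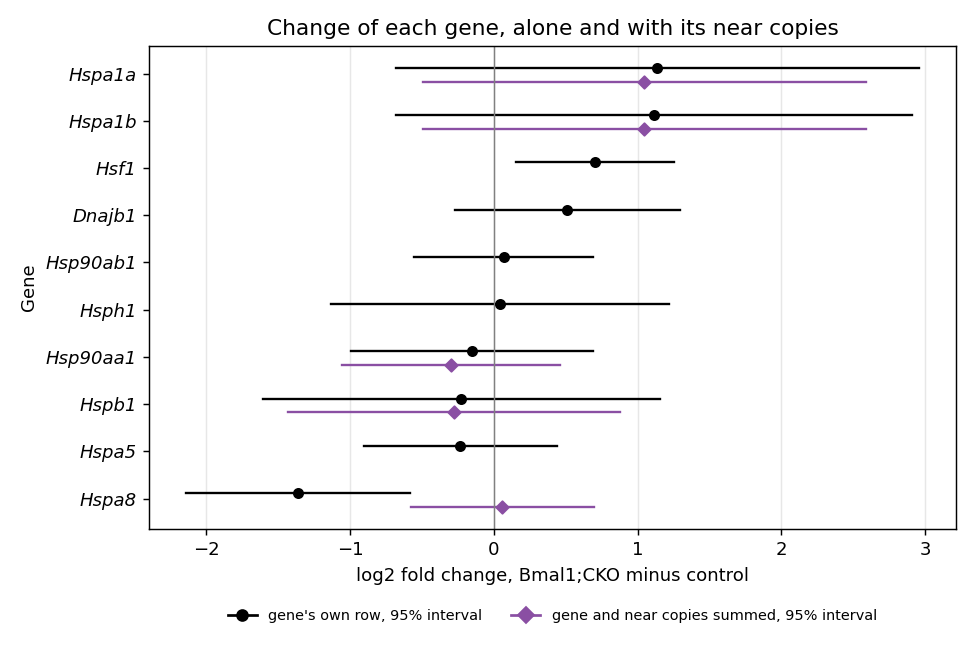
Log2 fold change (Bmal1;CKO minus control, limma-trend) with its 95% interval for each gene's own row in black and, where near copies exist, for gene and copies summed in purple; Hspa1a and Hspa1b share 1 sum. The interval lies wholly on one side of 0 for Hsf1 (0.15 to 1.25) and the Hspa8 row (-2.14 to -0.59), and that of Hspa8 with its copies runs from -0.58 to 0.70.

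**Figure D4:**
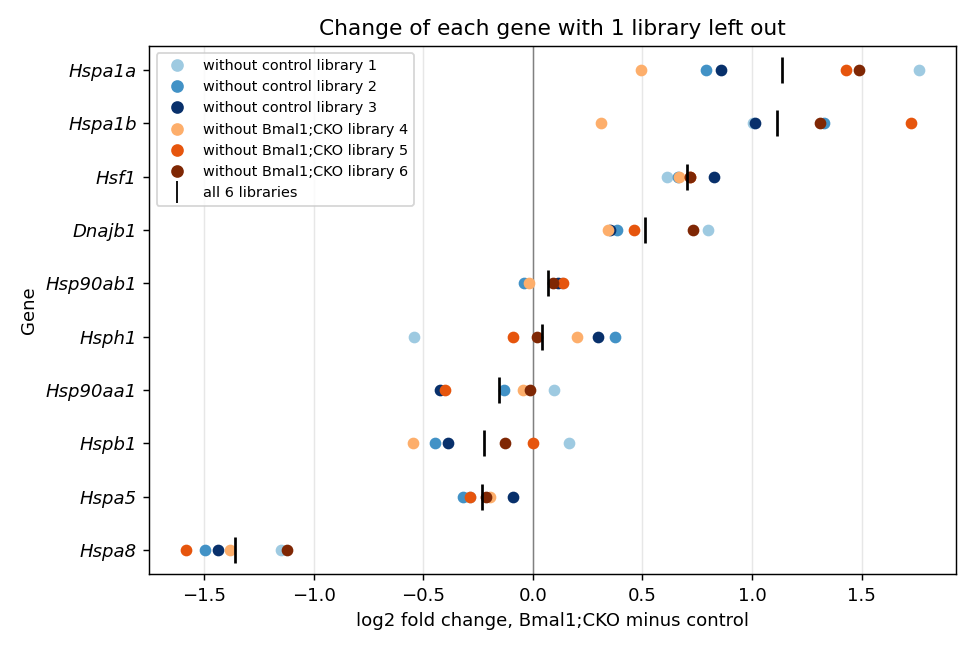
Log2 fold change of each gene (Bmal1;CKO minus control) with all 6 libraries (bar) and with each library left out in turn (points). Hspa1a and Hspa1b fall to 0.50 and 0.31 without Bmal1;CKO library 4, whereas Hsf1 stays between 0.61 and 0.83.

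Levels were compared between genes as RPKM, reads per kilobase of exon scaled to each library's total of reads on genes. Counted on each gene's own row, Hspa5 and Hsp90ab1 were the most abundant. Their means over the 6 libraries were 272 (range 199 to 401) and 267 (226 to 318), so these neighbours overlapped. Dnajb1 followed at 55.4 (41.9 to 70.1), separate from both its neighbours in the order. Hspa8 (10.5, 4.62 to 15.9), Hsp90aa1 (10.5, 7.10 to 13.6) and Hsf1 (7.83, 4.16 to 10.4) overlapped with each other when the groups were pooled. The order of Hspa8 and Hsf1 differed between the groups, at 15.2 ± 0.89 and 6.22 ± 1.97 in control and 5.86 ± 1.75 and 9.44 ± 0.92 in Bmal1;CKO cells (SD, n = 3 each). Hsph1 (4.18), Hspb1 (4.14), Hspa1b (2.14) and Hspa1a (2.03) were lowest, and their ranges overlapped with each other and with that of Hsf1. Reads on pseudogenes are left out of these levels, so those of Hspa8 and Hsp90aa1 are of the row and not of the transcript. The 10 rows took 0.192% to 0.299% of all reads on genes, and with their near copies 0.320% to 0.453%. Processed pseudogenes as a class held 10.2% to 14.7% of the reads.

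The pattern of the mean log2 value of the 10 genes was highest in Bmal1;CKO library 4 (12.34) and next in control library 1 (12.02), with the other libraries at 11.72 to 11.88. Library 4 held the highest value of 5 of the 10 genes. Of 15600 genes with a mean of at least 100 normalized counts, Sapcd2, Gm8115, Med9, Sin3b and Tpgs1 had the pattern most like it, with Pearson coefficients of 0.989 to 0.993 over the 6 libraries. These are the highest of many coefficients over few libraries that share 1 scaling, and are given as a description.

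Promoter sequences of 6 of the 10 genes were read from a RefSeq table (GRCm38.p6), those of Hspa8, Hsp90aa1, Hsp90ab1 and Hsf1 not being used here. Hsf1 binds repeats of the unit GAA in alternating orientation, and a pair of units reads GAANNTTC or TTCNNGAA. In the 250 bases before the start site, Hspa1a and Hspa1b each held 1 such pair, Hspb1 held 2 and Hsph1 held 1, while 12.8% of 32851 promoters held at least 1. The longer element of 3 alternating units, each an exact GAA or TTC, was in none of the 8 windows searched and in 0.466% of all promoters. Hspa5 held the endoplasmic reticulum stress element, CCAAT and CCACG separated by 9 bases, which 0.113% of promoters held. The clock's E-box CACGTG, which 6.02% of promoters held, was found at 1 of the start sites of Hsph1. None of these motifs was in the windows of Dnajb1, of which 1 (chr8:83608298-83608547) lay within the annotated gene. All were searched on both strands as exact letters, so elements with a changed base in a unit were not counted. The promoters of Hspa1a (chr17:34972157-34972406, minus strand) and Hspb1 (chr5:135887669-135887918, plus strand) are printed to show the pairs, in capitals, next to the genes' values above.

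Hspa1a promoter: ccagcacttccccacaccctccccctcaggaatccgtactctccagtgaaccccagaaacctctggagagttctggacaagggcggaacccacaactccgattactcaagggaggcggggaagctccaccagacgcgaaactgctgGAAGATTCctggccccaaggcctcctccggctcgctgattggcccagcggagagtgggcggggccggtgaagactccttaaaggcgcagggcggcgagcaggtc
Hspb1 promoter: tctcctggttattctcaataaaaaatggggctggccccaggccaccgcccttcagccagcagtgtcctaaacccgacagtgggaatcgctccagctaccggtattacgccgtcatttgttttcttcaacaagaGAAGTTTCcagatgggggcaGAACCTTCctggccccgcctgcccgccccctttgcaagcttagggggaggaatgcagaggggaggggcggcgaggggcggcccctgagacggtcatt

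The wider chaperone network was described with 8 lists holding 115 genes of the table, 113 of them tested. Of these, 7 (6.19%) were at an unadjusted limma-trend p under 0.05, against 4.92% of all genes, 2 being higher and 5 lower in Bmal1;CKO. Among the higher was Hspb9, which passed the filter on low counts only through the mutant libraries. None of the 113 passed a false discovery rate of 0.05. Their median log2 fold change was -0.15, with 45 higher and 68 lower, where that of all genes was 0.11.

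Among 15 HSP70 and HSP110 genes only Hspa8 was under the unadjusted threshold, and among 4 HSP90 genes none was. Hsp90b1, the HSP90 of the endoplasmic reticulum, had 29587, 29361 and 25693 normalized counts in control and 17205, 22469 and 20144 in Bmal1;CKO libraries, and all mutants were below all controls. Its log2 fold change was -0.51 (SE 0.23, limma-trend adjusted p = 0.883, exact permutation p = 0.1). Hspa4, an HSP110, overlapped between the groups (log2 fold change -0.14).

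Of 8 small heat shock genes tested, 1 was higher and 1 lower under the unadjusted threshold. Hspb8, which acts with Bag3 in the removal of aggregates by autophagy, had 906, 999 and 722 normalized counts in control and 390, 60.5 and 339 in Bmal1;CKO libraries. All mutants were below all controls, with a log2 fold change of -2.11 (SE 0.76, limma-trend adjusted p = 0.883). Without one library or another the log2 fold change of Hspb8 ran from -2.59 to -1.25, not always under the unadjusted threshold. Hspb9, known from testis, was at 1.23, 0 and 1.43 in control and at 28.1, 30.2 and 15.7 in Bmal1;CKO libraries, under the unadjusted threshold but with too few reads in control for a fold. Hspb9 passed the filter on low counts only through the mutant libraries, so the filter fixed the direction of its call. The abundant Hspb6 had 1491, 4738 and 5074 normalized counts in control and 5910, 5670 and 5743 in Bmal1;CKO libraries. All mutants were above all controls, with a log2 fold change of 0.81 (exact permutation p = 0.1) that was not under the threshold. Control library 1 was the lowest, and with 1 library left out the log2 fold change of Hspb6 ran from 0.24 to 1.12. Cryab overlapped between the groups (log2 fold change -0.49).

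Among 21 J-domain genes 1 was lower under the unadjusted threshold and 14 had a negative log2 fold change. It was Dnajb4, with 1974, 1698 and 1369 normalized counts in control and 790, 1087 and 899 in Bmal1;CKO libraries, all mutants below all controls (log2 fold change -0.86, SE 0.33, limma-trend adjusted p = 0.883). Of 26 co-chaperones of HSP70 and HSP90, 15 had a positive log2 fold change and 11 a negative one. Under the unadjusted threshold 2 were lower. St13, which holds HSP70 in its client-bound state, gave -0.65 (SE 0.26), and Ptges3, the p23 that closes the HSP90 clamp, gave -0.85 (SE 0.33), each with a limma-trend adjusted p of 0.883. Summed with its pseudogene copies Ptges3 gave -0.69 and was no longer under the threshold. The abundant Fkbp8 and Bag1 overlapped between groups.

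None of 16 chaperonin and prefoldin genes and none of 24 genes of folding and stress in the endoplasmic reticulum was under the unadjusted threshold. Of the former 12 and of the latter 19 had a negative log2 fold change, with medians of -0.28 and -0.21. Cct5 and Cct7, subunits of the ring that folds actin and tubulin, had log2 fold changes of 0.06 and 0.15, and P4hb, a disulfide isomerase, of -0.19. Of 5 heat shock factors and regulators tested, Hsf1 alone was under it. Hsbp1, which binds heat shock factor trimers, gave -0.46 (SE 0.32, limma-trend adjusted p = 0.883).

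**Figure D5:**
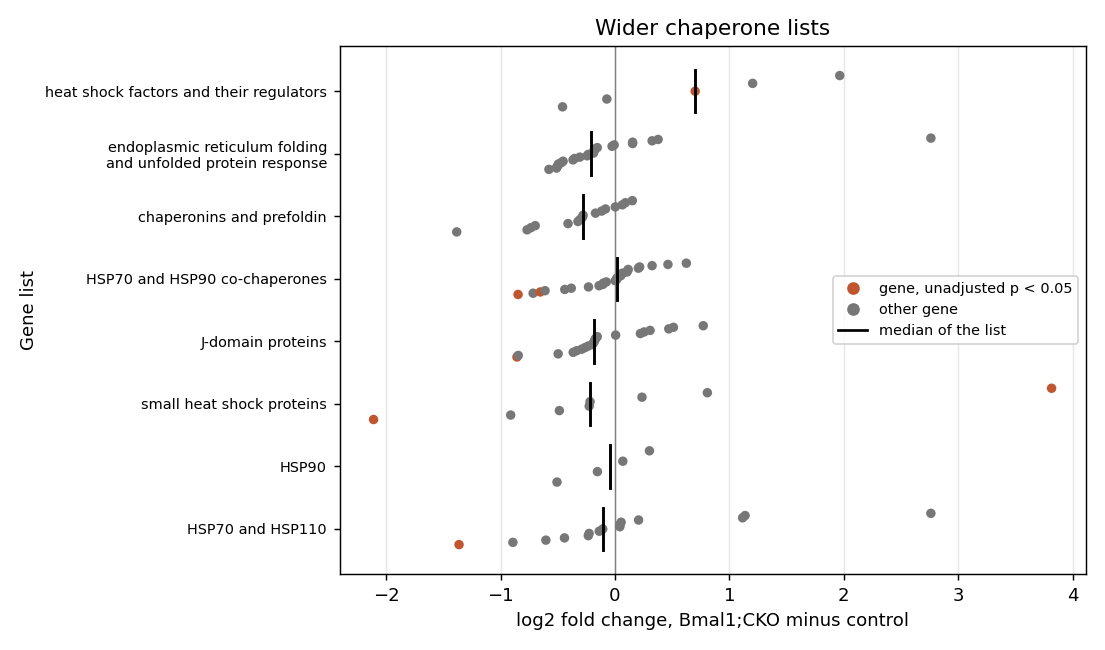
Log2 fold change (Bmal1;CKO minus control, limma-trend) of each tested gene in 8 chaperone lists, with genes under the unadjusted threshold in orange and the list's median as a bar. A few genes stand apart on either side, such as Hspb8 at -2.11 and Hspb9 at 3.82 (with too few control reads for a fold), while most lie between -1 and 1.

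Reads placed on pseudogenes were not particular to Hspa8 and Hsp90aa1 within these lists. Of the 113 genes tested, 12 had a pseudogene copy with at least 95% identity, and in 8 of them the copies held more reads than the gene. Besides Hspa8 and Hsp90aa1 these were Dnaja1, Dnajb6, Hspd1, Pdcd5, Pfdn5 and Ptges3. The mitochondrial chaperonin Hspd1 had 1972 ± 270.5 normalized counts in control and 1588 ± 96.3 in Bmal1;CKO cells (SD, n = 3 each), and its copies had a mean of 22578. Its log2 fold change was -0.30 alone and -0.30 with the copies summed. Of these 8 genes, Hspa8 and Ptges3 were the ones whose own rows did not overlap between the groups, both being lower in Bmal1;CKO. Of all genes tested, 4.54% lay wholly lower and 6.62% wholly higher.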

How the data were processed

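RNA was measured in VECs sorted by FACS from 3 control and 3 Bmal1;CKO animals at P7.5, from small amounts of poly-A RNA amplified before library preparation and sequenced as paired reads. Per the study's methods, reads were checked with FastQC, trimmed with Trimmomatic, aligned with Bowtie to mm10 (GRCm38), counted per gene with featureCounts and normalized with DESeq2. The version of Bowtie and the use of strand are not given in the sources used here. The deposited values are a normalized signal, namely gene counts that the authors divided by a size factor per library. Dividing by the smallest step of each library gave whole reads for 100% of the values (tolerance 0.01), with size factors of 0.711 to 1.40. The authors' fold changes and p-values, held in the same table, were not used.

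Genes that reached 10 reads in 3 or more libraries were tested with limma-trend (limma 3.58.1, R 4.3.3) on log2(normalized count + 1), so that fold changes of low genes are understated. P-values were adjusted by Benjamini-Hochberg over all tested genes, and an exact two-sided permutation test was run for single values. Fold changes are Bmal1;CKO minus control. Libraries carry the numbers of the table's columns, control libraries being 1, 2 and 3 and Bmal1;CKO libraries 4, 5 and 6. Replicates were the numbered samples of the labels, and p-values measure the spread between these samples. Near copies were found by aligning transcripts of GENCODE M21 with BLAST+ 2.17.0 (at least 95% identity over 200 bases). Tests on whole reads with edgeR 4.0.16, limma-voom and DESeq2 1.42.0 were alternatives, as were other pseudocounts, filters and leaving out each library. The fits were tested on simulated data. Intervals are of 95%. The genes, the wider lists and the markers were chosen with earlier results of these data known. Named outside the 10 were, from each wider list, up to 3 genes of smallest unadjusted p under 0.05 and the 2 of highest mean count, the 5 genes most like the mean of the 10, and Arntl. Pseudogene copies and the genes below their copies were named after their values were seen. Symbols listed more than once were taken at the row with most reads.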

Additional observations from a re-analysis of the deposited data

How the results depend on the processing

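No paired analysis was possible because the columns of the table carry no replicate number of the labels. Summing near copies, at 95% or at 90% identity, was chosen after seeing the data. It turned the log2 fold change of Hspa8 to 0.059 and 0.060 and left 1 chaperone gene under the unadjusted p threshold of 0.05 and 1 without overlap, Hsf1. Across the table DESeq2 called 67 genes at a false discovery rate of 0.05, 1 gene was called when all genes with a read were tested, and 1 when 10 reads were asked for in every library. Hspa8 had its smallest adjusted p, 0.0958, by DESeq2 (highest over the alternatives 1.00). DESeq2 put 12 wider-list genes and 3 chaperone genes under the unadjusted threshold, the third being Hspa1b (log2 fold change 1.59). Of all genes tested, 5.94% were under it by DESeq2. Leaving out 1 library gave 0 to 6 genes called, 1 to 4 chaperone genes under the unadjusted threshold, 2 to 5 without overlap and 2 to 16 wider-list genes under it. Smaller groups separate more easily by chance, and the share of all genes without overlap is not given for these fits. The 6 genes and the 4 chaperone genes came without control library 1, where 8.63% of all genes tested were under the unadjusted threshold. The 16 came without control library 3, where 11.9% of all genes tested were under it. Signs turned for Hsph1 by DESeq2, edgeR with TMM and edgeR with the deposited size factors (-0.14 each), and with 1 library left out for Hsph1 (range -0.54 to 0.37), Hsp90aa1 (-0.42 to 0.097), Hsp90ab1 (-0.041 to 0.14) and Hspb1 (-0.55 to 0.16). Hspa1a, Hspa1b, Hspa5, Dnajb1 and Hsf1 kept their sign in all 16 alternatives. The median log2 fold change of all genes was 0.11 by limma-trend and -0.03 by edgeR with TMM, and that of the 10 chaperone genes 0.06 and -0.04. With the longest transcript as length the level per kilobase of Hsf1 was 17.7, of Hsp90ab1 318, of Hspa8 14.3 and of Hsph1 6.37. That of Hspa5 was then 314, below Hsp90ab1. The cause of these changes was not tested. No limit of detection was computed for 3 libraries a group.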
